A study of Homo sapiens with 4 samples.

Results

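Ribosome biogenesis is the making of ribosomes in the nucleolus, where RNA polymerase I (Pol I) copies the ribosomal DNA and a long chain of factors modifies, cuts and folds the transcript into the small and the large subunit. The genes examined are 40 human genes of this process, chosen by symbol from a fixed list that covers Pol I and its factors, the small nucleolar ribonucleoproteins (snoRNPs), the assembly factors of both subunits and the abundant nucleolar proteins. All 40 had a row among the 22494 features of the raw count table, and all 40 passed the filter on low counts. No rule on the values of its genes set the list, but earlier results of these data were known when it was chosen.

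Poly(A) RNA of 2 endometrial cancer cell lines, RL-95-2 and HEC-1-A, was sequenced in 4 libraries. The RL-95-2 mimic library came from cells transfected with tRF-20-S998LO9D mimics, synthetic copies of a fragment of a transfer RNA, and the RL-95-2 control library from cells given the negative control of the mimics. The HEC-1-A mimic and HEC-1-A control libraries were made from HEC-1-A cells transfected in the same manner. The design asks how gene expression differs between mimic and control cells. Each line gave 1 library per transfection, so a ratio within a line has no replicate check. No source used here gives the dose or duration of the transfection, the sequence of the negative control or whether libraries came from separate cultures. The spread behind a p-value is how far the difference between mimic and control varies between the 2 lines, evened out in part over features. It holds any technical difference among the libraries and does not measure spread among cultures of a line.

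Total counts were 46220053 in the RL-95-2 mimic, 39999621 in the RL-95-2 control, 45970431 in the HEC-1-A mimic and 33575882 in the HEC-1-A control library. The label of an epithelial cancer line was checked against marker genes. The summed level of 5 epithelial markers, EPCAM, KRT8, KRT18, KRT19 and CDH1, was 3369 CPM (counts scaled to library size) in the RL-95-2 mimic and 1871 CPM in the RL-95-2 control library, and it was 905 CPM in the HEC-1-A mimic and 1053 CPM in the HEC-1-A control library. PTPRC, the pan-leukocyte marker, had 0 counts in 3 libraries and 2 in the HEC-1-A control, and of the 5 stromal genes COL1A2 and DCN had 0 in all 4. COL1A1, a fibrillar collagen chain, had 2788 counts in the RL-95-2 mimic and 3051 in its control, and 286 in the HEC-1-A mimic and 98 in its control. COL3A1 had 90 and 95 counts in the RL-95-2 mimic and control and 2 and 6 in the HEC-1-A mimic and control, and PDGFRB had 20 to 61 counts in each library. CDH5, an endothelial cadherin, had 1207 counts in the RL-95-2 mimic and 548 in its control, and 0 in both HEC-1-A libraries. Of the endometrial gland factors, PAX8 had 10839 to 15792 counts in each library and SOX17 had 0 in all 4. The RL-95-2 libraries stood further apart than the HEC-1-A libraries, with 11.2% of 13151 features at least 2-fold apart in RL-95-2 and 1.11% of 12981 in HEC-1-A. HSPA8, a heat shock protein, had 1719 CPM in the RL-95-2 mimic and 136.3 CPM in its control, and ATF3, a stress-response transcription factor, had 4.12 and 129.1 CPM. In HEC-1-A they had 325.2 and 614.0 CPM of HSPA8 and 50.1 and 32.8 CPM of ATF3 in the mimic and control. The part of the marker and stress genes in the RL-95-2 ratios was not tested. In bulk samples, fewer cells of a type and less RNA per cell cannot be told apart.

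Pol I does the bulk of transcription in a growing cell, and its output is set by UBTF, which keeps ribosomal DNA open, and RRN3, which links the polymerase to its promoter. Box C/D snoRNPs guide methylation and box H/ACA snoRNPs guide pseudouridylation of ribosomal RNA. The transcription factor MYC is known to raise many of these genes, and large nucleoli are a common feature of cancer cells.

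The 40 genes were well expressed, with 744 to 66090 raw counts per gene and library. Per length of transcript, in the authors' FPKM (fragments scaled by transcript length and library size), their median level was 37.0 in the RL-95-2 mimic, 29.5 in the RL-95-2 control, 27.6 in the HEC-1-A mimic and 25.7 in the HEC-1-A control library. The median of all features of at least 1 CPM lay between 8.58 and 9.82 FPKM. NPM1, the nucleophosmin chaperone of the nucleolus, stood highest in every library, at 508.8 FPKM in the RL-95-2 mimic and 495.9 FPKM in the RL-95-2 control, and at 758.7 FPKM in the HEC-1-A mimic and 814.4 FPKM in the HEC-1-A control. NCL, the RNA-binding protein nucleolin, came next at 318.4 and 257.4 FPKM in the RL-95-2 mimic and control and at 218.0 and 216.8 FPKM in the HEC-1-A mimic and control. Lowest were WDR12 in RL-95-2, at 9.32 FPKM in the mimic and 9.41 FPKM in the control library, and UTP20 in HEC-1-A, at 5.80 FPKM in the mimic and 6.38 FPKM in the control library. NPM1 and NCL together made up 30.6% and 30.1% of the summed CPM of the 40 genes in the RL-95-2 mimic and control, and 37.0% and 36.4% in the HEC-1-A mimic and control. Read counts of NPM1 are uncertain, because GENCODE 29 lists 45 pseudogenes named after it, none of which has a row in the table, and the same holds for 3 pseudogenes of NOP56, 2 each of RRN3, NHP2, PES1 and NCL, and 1 each of GNL2 and LYAR.

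**Figure D1:**
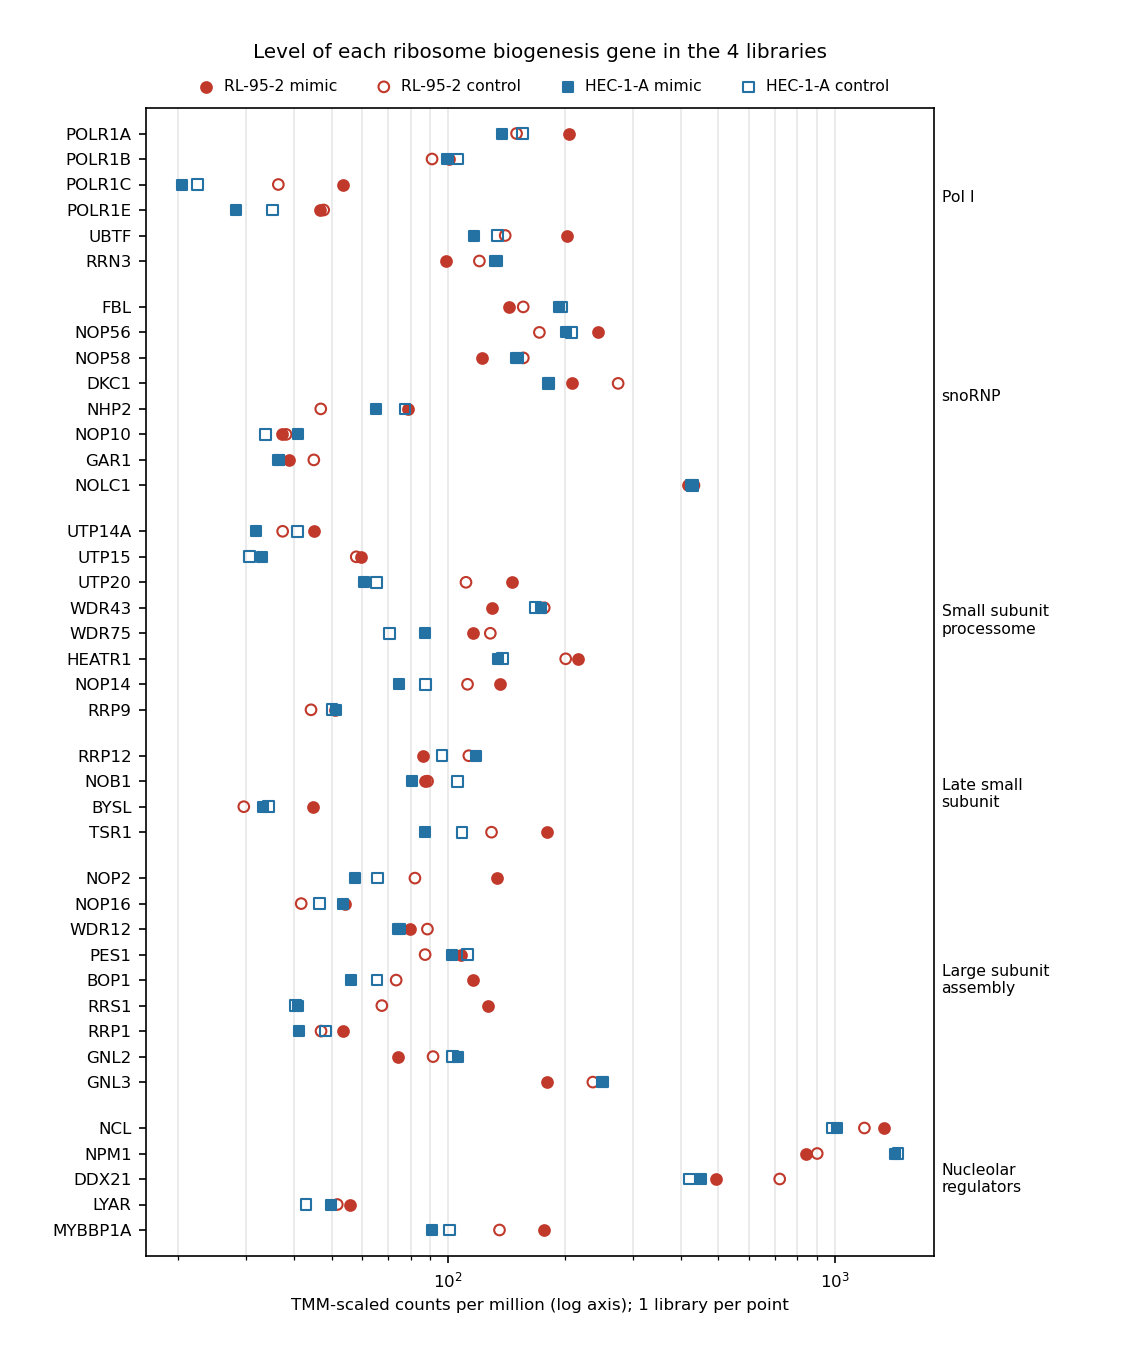
The level of each of the 40 genes in each library, in TMM-scaled CPM on a log axis, with 1 library per point and the genes grouped by role. NPM1 and NCL stand highest, and POLR1C, UTP20 and RRS1 are among the genes with both RL-95-2 points to the right of both HEC-1-A points.

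A promoter element was frequent among these genes, and is shown because it occurs in genes on both sides of 0 in RL-95-2. The E-box CACGTG, searched on both strands (it reads the same on both), is the element bound by MYC with MAX. RefSeq promoter windows (GRCh38.p14, 250 bases before to 50 after the start of the gene) were found for 34 of the 40 genes, in 42 windows. POLR1E, NOP58, NOLC1, RRP12, BOP1 and RRS1 had none. The E-box was in 38.1% of the 42 windows, in 16 of 34 genes, and in 7.3% of all 35116 windows of the table. Among windows of genes in the count table the share was 8.4%. Median GC content was 64.3% in the windows of the 34 genes and 62.7% in windows of genes in the count table. Of the 17 E-boxes, 14 began within 50 bases of the start site. The stretches of 30 bases below, 5′ to 3′ on the strand of the gene with the E-box in capitals, come from genes higher in the RL-95-2 mimic than in its control (NOP2, BYSL, UTP20 and MYBBP1A) and from genes lower there (DDX21, WDR43, GNL3 and GNL2).
NOP2: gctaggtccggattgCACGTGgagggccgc
BYSL: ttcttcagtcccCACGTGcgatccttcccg
UTP20: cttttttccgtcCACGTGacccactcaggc
MYBBP1A: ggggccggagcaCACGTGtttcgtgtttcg
DDX21: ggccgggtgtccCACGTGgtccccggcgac
WDR43: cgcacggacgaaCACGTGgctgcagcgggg
GNL3: ggcttcagttcaCACGTGgcgccagcggag
GNL2: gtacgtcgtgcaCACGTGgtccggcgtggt

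These stretches lie at chr12:6568242-6568271 on the minus strand for NOP2, chr6:41921515-41921544 on the plus strand for BYSL, chr12:101280083-101280112 on the plus strand for UTP20 and chr17:4555340-4555369 on the minus strand for MYBBP1A. Those of DDX21 (chr10:68956604-68956633, plus strand), WDR43 (chr2:28894658-28894687, plus strand), GNL3 (chr3:52686026-52686055, plus strand) and GNL2 (chr1:37595917-37595946, minus strand) were likewise picked for the E-box. The E-box begins at base 36 after the start site of its window in NOP2, 29 in BYSL, 28 in MYBBP1A and 7 in GNL3. It begins at base 4 in both WDR43 and GNL2, at -10 in UTP20 and at -31 in DDX21. DDX21, GNL3, GAR1 and LYAR each also have a window, at another start site, that holds no E-box. The ETS core CCGGAAG, on either strand, was in 28.6% of the 42 windows and 10.3% of all windows, and the NRF1 motif in 7.1% and 1.2%. CCAAT, on either strand, was in 31.0% and 34.6%, and TATAAA in 2.4% and 11.5%. A match is a description of the letters and not of binding.

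In RL-95-2, the mimic library held moderately more of many ribosome biogenesis transcripts and less of others, and no gene of the 40 reached 2-fold. At 2-fold, 0 of the 40 were higher and 0 were lower. The shares were 4.71% and 6.52% of 13151 features of at least 1 CPM in the line. Of the 8957 features of at least 10 CPM, 176 were higher and 395 lower at 2-fold. RRS1, NHP2, NOP2, BOP1 and BYSL, 5 of the 40 (12.5%), were at least 1.5-fold higher, where 14.5% of all features were. At least 1.5-fold lower were 0 of the 40, where 15.5% of all features were. Of the 8957 features, 932 were higher and 1172 lower at 1.5-fold. Log2 ratios of mimic over control, on TMM-scaled CPM with a prior count of 2, ran from -0.55 to 0.91 with a median of 0.13, and the median of all features was 0.00. They were above 0 in 23 of the 40 (57.5%) and in 50.1% of all features, and below 0 in 17 and in 49.9% of all features. Scaled by the library total, 29 of the 40 were above 0, as were 59.6% of all features. The 95% counting interval lay above 0 for 22 genes and below 0 for 14, against 39.9% and 40.5% of all features. Intervals narrow with count, so in either line genes of high count clear 0 more readily than features near 1 CPM.

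In HEC-1-A, the same genes differed little between the mimic and control libraries. Ratios ran from -0.39 to 0.30 with a median of -0.02, beside 0.02 for all features. None of the 40 was at least 1.5-fold apart, whereas 3.44% of 12981 features were higher by that margin and 1.32% were lower. Those features reach down to 1 CPM, and the lowest level among the 40 genes was 20.5 CPM, so the shares are not matched in level. Of the 8957 features of at least 10 CPM, 55 were higher and 25 lower by that margin. At 2-fold, again 0 of the 40 were higher or lower, against 0.871% and 0.239% of all features. Of the 8957 features, 4 were higher and 4 lower at 2-fold. Log2 ratios were above 0 in 16 of the 40 and in 53.6% of all features, below 0 in 24 and in 46.4% of all features, and the counting interval lay below 0 for 17 genes and above 0 for 8, against 23.5% and 29.5% of all features. The median size of the log2 ratio, regardless of sign, was 0.31 over the 40 genes in RL-95-2 and 0.11 in HEC-1-A, beside 0.37 and 0.14 over all features.

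**Figure D2:**
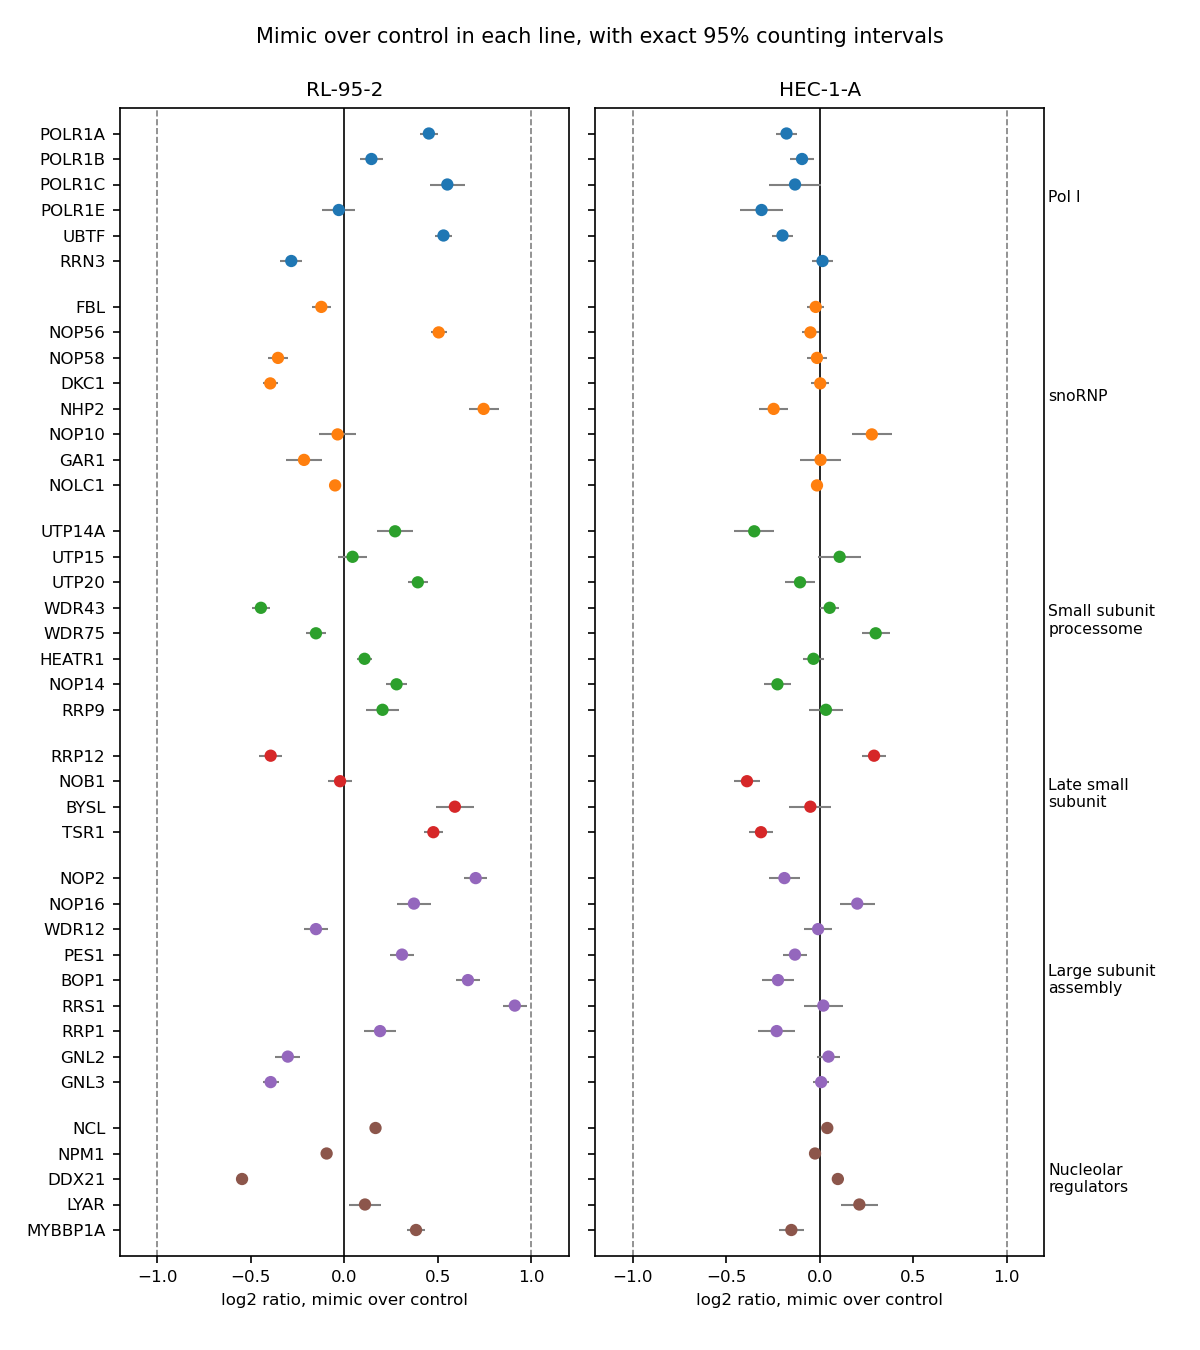
The log2 ratio of mimic over control for each gene in RL-95-2 and in HEC-1-A, with exact 95% counting intervals as bars, colours for the role of the gene and dashed lines at 2-fold. Ratios spread from -0.55 to 0.91 in RL-95-2 and from -0.39 to 0.30 in HEC-1-A, and none crosses the dashed lines.

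Among the Pol I genes, the RL-95-2 mimic library held more POLR1C, UBTF and POLR1A than its control. POLR1A, the largest subunit of Pol I, had 205.7 CPM in the RL-95-2 mimic and 150.3 CPM in the RL-95-2 control library (log2 ratio 0.45, 95% counting interval 0.41 to 0.50), and 137.6 CPM in the HEC-1-A mimic and 155.7 CPM in the HEC-1-A control library (-0.18, -0.23 to -0.12). UBTF had 203.0 CPM in the RL-95-2 mimic and 140.5 CPM in the control, and 116.7 CPM in the HEC-1-A mimic and 134.0 CPM in the control, with log2 ratios of 0.53 and -0.20. POLR1C, a subunit that Pol I shares with RNA polymerase III, had 53.3 CPM in the RL-95-2 mimic and 36.4 CPM in the control, and 20.5 CPM in the HEC-1-A mimic and 22.5 CPM in the control. Its log2 ratios were 0.55 and -0.13, and the interval in HEC-1-A reached from -0.27 to 0.01. For all 3 genes the RL-95-2 mimic library was the highest of the 4 and the HEC-1-A mimic library the lowest.

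The other Pol I genes were closer between libraries or lay the other way. POLR1B, the second-largest subunit, had 100.5 CPM in the RL-95-2 mimic and 90.9 CPM in the control, and 99.4 CPM in the HEC-1-A mimic and 106.2 CPM in the control. POLR1E, a subunit that binds UBTF, had 46.7 CPM in the RL-95-2 mimic and 47.6 CPM in the control. Its log2 ratio of -0.03 there turned positive when scaled by the library total. In HEC-1-A, POLR1E had 28.3 CPM in the mimic and 35.1 CPM in the control (-0.31). RRN3 was lower in the RL-95-2 mimic, at 98.9 CPM against 120.4 CPM in its control (-0.28, -0.34 to -0.23), and had 134.0 CPM in the HEC-1-A mimic and 132.6 CPM in the control. Over the 6 genes the median log2 ratio was 0.30 in RL-95-2 and -0.15 in HEC-1-A, with 4 and 1 above 0. The 1 gene above 0 in HEC-1-A was RRN3, whose ratio of 0.01 turned negative when scaled by the library total.

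Within both classes of snoRNP, subunits that work in 1 particle had ratios on opposite sides of 0 in RL-95-2. Of the box C/D core, NOP56 had 244.4 CPM in the RL-95-2 mimic and 172.2 CPM in the control (log2 ratio 0.51, interval 0.46 to 0.55), while its partner NOP58 had 122.4 and 156.5 CPM in the mimic and control (-0.35, -0.41 to -0.30). FBL, the methyltransferase of the particle, had 143.6 CPM in the RL-95-2 mimic and 156.4 CPM in the control (-0.12, turned positive when scaled by the library total). In HEC-1-A the log2 ratios of all 3 lay between -0.05 and -0.01, with 201.5 CPM of NOP56 in the mimic and 208.6 CPM in the control, 150.0 and 151.5 CPM of NOP58, and 193.4 and 196.3 CPM of FBL.

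Of the box H/ACA core, NHP2 had 78.5 CPM in the RL-95-2 mimic and 46.8 CPM in the control, a 1.68-fold higher level (log2 ratio 0.75, 0.67 to 0.83), and 65.1 CPM in the HEC-1-A mimic and 77.2 CPM in the control (-0.25). DKC1, the pseudouridine synthase dyskerin, had 209.2 CPM in the RL-95-2 mimic and 275.3 CPM in the control (-0.40, -0.44 to -0.36), and 182.4 CPM in the HEC-1-A mimic and 182.1 CPM in the control. GAR1 had 38.7 and 44.9 CPM in the RL-95-2 mimic and control (-0.22), and 36.5 and 36.4 CPM in the HEC-1-A mimic and control. NOP10, the smallest of the core proteins, had 37.1 CPM in the RL-95-2 mimic and 38.1 CPM in the control (-0.04, turned positive when scaled by the library total), and 40.8 CPM in the HEC-1-A mimic and 33.7 CPM in the control (0.28). NOLC1, a chaperone that carries snoRNPs between nuclear bodies, was nearly level over all 4 libraries, at 418.0 CPM in the RL-95-2 mimic, 432.5 CPM in its control, 424.6 CPM in the HEC-1-A mimic and 429.0 CPM in its control. In the GENCODE annotation 414 exonic bases of NHP2 overlap RMND5B on the other strand, so its count is uncertain where the strand was not used.

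The small subunit processome is the large early particle that forms on the nascent transcript. Of its 8 genes, 6 were above 0 in RL-95-2 (median log2 ratio 0.16) and 4 in HEC-1-A (median 0.00). UTP20, a scaffold protein of the particle, had the highest ratio of the group in RL-95-2, with 146.1 CPM in the mimic and 111.2 CPM in the control (0.39, 0.34 to 0.45), and it had 60.7 CPM in the HEC-1-A mimic and 65.3 CPM in the control (-0.11). WDR43, one of the UTP proteins that also support Pol I transcription, had the lowest there, with 130.1 CPM in the mimic and 177.2 CPM in the control (-0.45, -0.50 to -0.40), against 174.3 and 168.0 CPM in the HEC-1-A mimic and control (0.05). In HEC-1-A the ends of the group were WDR75, another of these UTP proteins, with 86.9 CPM in the mimic and 70.6 CPM in the control (0.30), and UTP14A, a cofactor of an RNA helicase, with 31.9 CPM in the mimic and 40.7 CPM in the control (-0.35). Both lay on the other side of 0 in RL-95-2, where WDR75 had 115.7 CPM in the mimic and 128.5 CPM in the control (-0.15). UTP14A had 45.1 CPM in the RL-95-2 mimic and 37.3 CPM in the control (0.27). NOP14, a core protein of the particle, RRP9, which binds the U3 snoRNA, HEATR1, another UTP protein that supports Pol I transcription, and UTP15 had log2 ratios between 0.04 and 0.28 in RL-95-2 and between -0.23 and 0.11 in HEC-1-A.

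Later steps of small subunit maturation were split in the same manner. BYSL (bystin) had 44.6 CPM in the RL-95-2 mimic and 29.6 CPM in the control, 1.51-fold higher (log2 ratio 0.59, 0.49 to 0.70), and 33.1 and 34.3 CPM in the HEC-1-A mimic and control. TSR1, an assembly factor that resembles a GTPase, had 180.2 CPM in the RL-95-2 mimic and 129.5 CPM in the control (0.48), and 87.3 CPM in the HEC-1-A mimic and 108.6 CPM in the control (-0.31), although 1146 of its exonic bases overlap SRR on the other strand. RRP12, which takes part in export of the subunit, was the lowest of the group in RL-95-2, at 86.1 CPM in the mimic and 113.1 CPM in the control (-0.39), and the highest in HEC-1-A, at 117.8 CPM in the mimic and 96.3 CPM in the control (0.29). NOB1, the nuclease that makes the final cut of the small subunit RNA, had 87.1 CPM in the RL-95-2 mimic and 88.4 CPM in the control (-0.02, turned positive when scaled by the library total), and the lowest ratio of all 40 genes in HEC-1-A, at 80.7 CPM in the mimic and 105.7 CPM in the control (-0.39, -0.46 to -0.32).

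Large subunit assembly held 3 of the 5 genes at least 1.5-fold higher in the RL-95-2 mimic. RRS1, which brings a small ribosomal RNA and its proteins into the large subunit precursor, had the highest ratio of the 40, with 126.8 CPM in the RL-95-2 mimic and 67.4 CPM in the control, 1.88-fold higher (log2 ratio 0.91, 0.85 to 0.98), while the HEC-1-A libraries had 40.8 CPM with the mimic and 40.2 CPM with the control. NOP2, an RNA methyltransferase and a classical nucleolar proliferation antigen, had 133.6 CPM in the RL-95-2 mimic and 82.04 CPM in the control, 1.63-fold higher, and 57.5 and 65.6 CPM in the HEC-1-A mimic and control. BOP1 had 116.1 CPM in the RL-95-2 mimic and 73.4 CPM in the control, 1.58-fold higher, and 56.1 and 65.5 CPM in the HEC-1-A mimic and control. BOP1 forms the PeBoW complex with PES1 and WDR12, whose log2 ratios in RL-95-2 were 0.31 and -0.15, and 0.66 for BOP1. GNL3, the GTP-binding protein nucleostemin, and the related GNL2 were lower in the RL-95-2 mimic. GNL3 had 180.2 CPM there and 236.8 CPM in the control (-0.39, -0.44 to -0.35), and 251.5 and 250.2 CPM in the HEC-1-A mimic and control. GNL2 had 74.1 CPM in the RL-95-2 mimic and 91.4 CPM in the control (-0.30). Highest and lowest of this group in HEC-1-A were NOP16, at 53.4 CPM in the mimic and 46.5 CPM in the control (0.20), and RRP1, at 41.1 CPM in the mimic and 48.2 CPM in the control (-0.23). In RL-95-2, NOP16 had 54.0 CPM in the mimic and 41.7 CPM in the control, and RRP1 had 53.6 and 46.9 CPM. Over the 9 genes the median log2 ratio was 0.31 in RL-95-2 and -0.01 in HEC-1-A.

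Of the abundant nucleolar proteins, DDX21, an RNA helicase that acts in both Pol I transcription and processing, had the lowest ratio of the 40 in RL-95-2. It had 493.3 CPM in the RL-95-2 mimic and 720.8 CPM in the control, 1.46-fold lower (log2 ratio -0.55, -0.57 to -0.52), and 449.8 CPM in the HEC-1-A mimic and 420.6 CPM in the control (0.10). MYBBP1A, a nucleolar MYB-binding protein, lay the other way, with 177.2 CPM in the RL-95-2 mimic and 135.8 CPM in the control (0.38) and 90.7 and 100.7 CPM in the HEC-1-A mimic and control (-0.15). NCL had 1341 CPM in the RL-95-2 mimic and 1194 CPM in the control (0.17), and 1012 and 983.8 CPM in the HEC-1-A mimic and control (0.04). NPM1 had 844.2 CPM in the RL-95-2 mimic and 901.3 CPM in the control (-0.09, turned positive when scaled by the library total), and 1433 and 1458 CPM in the HEC-1-A mimic and control (-0.03). LYAR, a growth-regulating nucleolar protein, had 55.8 CPM in the RL-95-2 mimic and 51.7 CPM in the control (0.11), and 49.6 CPM in the HEC-1-A mimic and 42.8 CPM in the control (0.21, the highest of the group in that line).

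MYC itself had 124.4 CPM in the RL-95-2 mimic and 311.5 CPM in the RL-95-2 control library, and 450.6 and 461.4 CPM in the HEC-1-A mimic and control. The 16 genes with an E-box in the promoter window had a median log2 ratio of 0.16 in RL-95-2, as did the 18 genes with a window and no E-box, at 0.16, and 9 and 12 of them were above 0. In HEC-1-A the medians were -0.01 and -0.04. The stretches printed above were picked for the motif, from genes on both sides of 0 in RL-95-2, so their sharing it is no result. The part of MYC or of the E-box in these ratios was not tested.

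**Figure D3:**
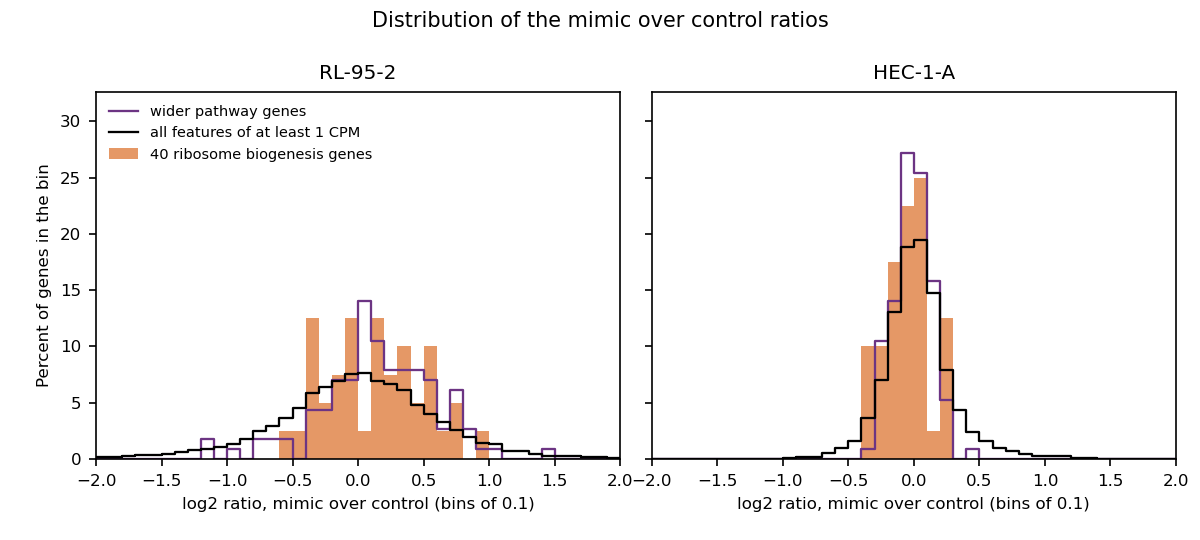
The share of genes in each bin of 0.1 of the log2 ratio of mimic over control, as bars for the 40 ribosome biogenesis genes, a purple line for 114 further genes of the pathway and a black line for all features of at least 1 CPM. In RL-95-2 the median is 0.13 for the 40 genes and 0.17 for the 114, beside 0.00 for all features, and in HEC-1-A all 3 medians lie between -0.02 and 0.02.

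Taking both lines as replicates, none of the 40 genes passed. The edgeR quasi-likelihood test with the cell line as a block called 0 of the 40 at a false discovery rate of 0.05, with 0 at an unadjusted p under 0.05, and DESeq2 and limma-voom also called 0. Over all 15957 features the test called 0% higher and 0% lower, and 1.05% had an unadjusted p under 0.05. RRS1 had the lowest p of the 40 (log2 fold change 0.47, SE 0.29, n = 2 per transfection, edgeR adjusted p = 0.9999), with log2 ratios of 0.91 in RL-95-2 and 0.02 in HEC-1-A, the second of which turned negative when scaled by the library total. NOP16, which was above 0 in both lines, had a log2 fold change of 0.29 (SE 0.23, edgeR adjusted p = 0.9999). The fit had 1 residual degree of freedom, and the test does not show that the genes were alike in mimic and control cells.

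Between the lines, 17 of the 40 genes were above 0 in RL-95-2 and below 0 in HEC-1-A, 10 were the reverse, 6 were above 0 in both and 7 below 0 in both. Over 11913 features of at least 1 CPM in both lines these shares were 26%, 29.2%, 23.9% and 20.9%. Scaled by the library total, the RL-95-2 ratios of POLR1E, FBL, NOP10, NOLC1, NOB1 and NPM1 turned positive, and the HEC-1-A ratios of RRN3, DKC1, GAR1, RRS1 and GNL3 turned negative. The ratio in RL-95-2 exceeded that in HEC-1-A for 23 of the 40 genes, beside 49% of features. Between the lines the log2 ratios of the 40 genes correlated at -0.45 (Pearson r) and -0.54 (Spearman rho), given as a description across genes that share 4 libraries. The difference between the lines has no replicate within a line and was not tested.

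The ratios also varied with the GC content of the transcript. Across the 40 genes, the log2 ratio and the GC content of the longest coding transcript in GENCODE 29 correlated at 0.57 (Pearson r) and 0.56 (Spearman rho) in RL-95-2, and -0.37 and -0.42 in HEC-1-A. These are descriptions across genes counted in the same libraries. Over 11906 features in RL-95-2 the values were 0.09 and 0.13, and over 11595 features in HEC-1-A they were 0.00 and -0.03. DDX21 and WDR43, of 41.1% and 40.3% GC, lay at the low end in RL-95-2, and BOP1, NHP2 and RRS1, of 65.2%, 57.1% and 56.3%, at the high end, whereas RRP12, of 58.6%, was low. With trends of GC content and length over all features removed from the ratios, 3 in place of 5 of the 40 were at least 1.5-fold higher in RL-95-2, and the median was 0.12. The count was 9 when scaled by the library total and 10 on FPKM.

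**Figure D4:**
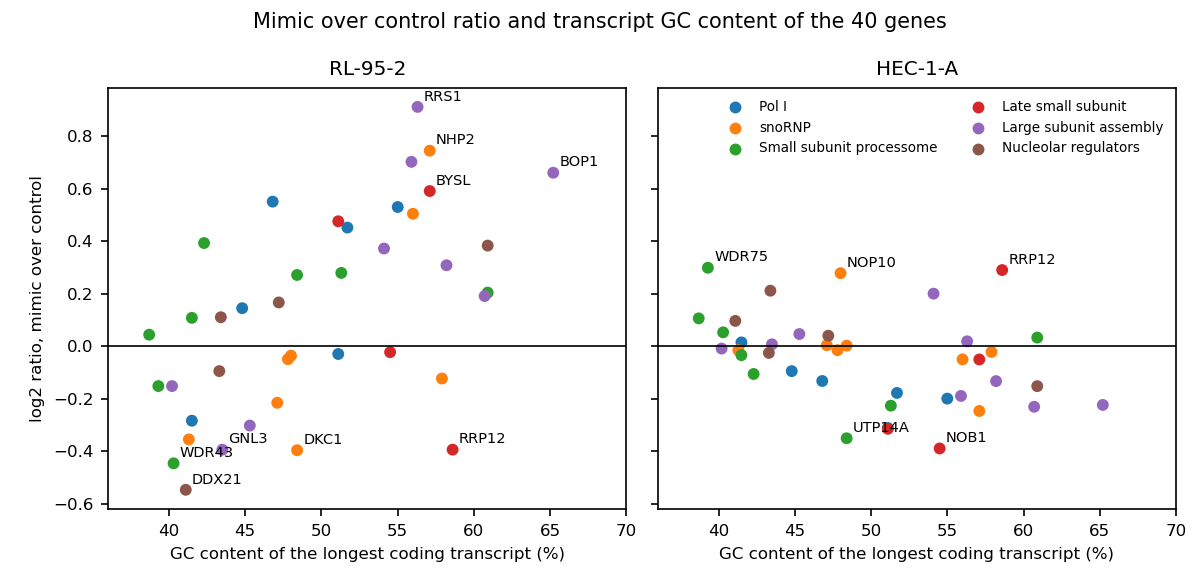
The log2 ratio of mimic over control against the GC content of the longest coding transcript for the 40 genes, in RL-95-2 and HEC-1-A, coloured by role. The Pearson r is 0.57 in RL-95-2, where DDX21 and RRS1 mark the ends, and -0.37 in HEC-1-A.

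The level of the genes was then compared between the lines, RL-95-2 over HEC-1-A, with the transfection as a block and 2 libraries per line. POLR1C, UTP15, UTP20 and RRS1 were higher in RL-95-2 and passed, and 0 of the 40 passed as lower, which is 10% of the 40 beside 18.3% of 15957 features called higher and 16.7% called lower. RRS1 had a log2 fold change of 1.19 (SE 0.29, edgeR adjusted p = 0.021), from 126.8 and 67.4 CPM in the RL-95-2 mimic and control against 40.8 and 40.2 CPM in the HEC-1-A mimic and control. The log2 fold change was 1.04 for POLR1C (SE 0.27, edgeR adjusted p = 0.027) and 1.02 for UTP20 (SE 0.24, edgeR adjusted p = 0.020). UTP15, a UTP protein of the processome that also supports Pol I transcription, had 59.6 CPM in the RL-95-2 mimic and 57.8 CPM in the RL-95-2 control, against 33.0 CPM in the HEC-1-A mimic and 30.7 CPM in the HEC-1-A control (log2 fold change 0.88, SE 0.23, edgeR adjusted p = 0.025). For each of the 4 genes both RL-95-2 libraries lay above both HEC-1-A libraries. The same held for several genes that did not pass, among them NOP2, NOP14, HEATR1 and NCL. The log2 ratio of RL-95-2 over HEC-1-A was 1.64 between the mimic and 0.74 between the control libraries for RRS1, 1.38 and 0.69 for POLR1C, 1.27 and 0.77 for UTP20, and 0.85 and 0.91 for UTP15. POLR1C shares exonic bases with XPO5, YIPF3 and LRRC73 on the other strand (348, 129 and 140 bases) and UTP15 with ANKRA2 (244 bases), so reads of these genes cannot be told apart where the strand was not used.

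The remaining 36 genes did not pass, and a further 7 had an unadjusted p under 0.05. Of these 7, NPM1 was the one with the lower value in RL-95-2, at 844.2 and 901.3 CPM in the RL-95-2 mimic and control against 1433 and 1458 CPM in the HEC-1-A mimic and control (log2 fold change -0.73, SE 0.27, edgeR adjusted p = 0.081). MYBBP1A had 0.70 (adjusted p = 0.073), NOP2 0.77 (adjusted p = 0.082) and WDR75 0.64 (adjusted p = 0.083) in the same edgeR test. These values also depended on the transfection, with log2 ratios between the mimic and between the control libraries of 0.97 and 0.43 for MYBBP1A, 1.21 and 0.32 for NOP2, and 0.41 and 0.86 for WDR75. Over all 40 genes the median log2 fold change was 0.18, with 25 above 0, where 8037 of 15957 features were above 0. The median was 0.62 for the 8 processome genes and 0.00 for the 8 snoRNP genes. The median of all features was 0.01. DESeq2 called 7 of the 40, NPM1 among them, where it called 2794 of 15957 features higher and 2643 lower. Without the block for transfection edgeR called 9 of the 40, where it called 3495 features higher and 3151 lower.

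**Figure D5:**
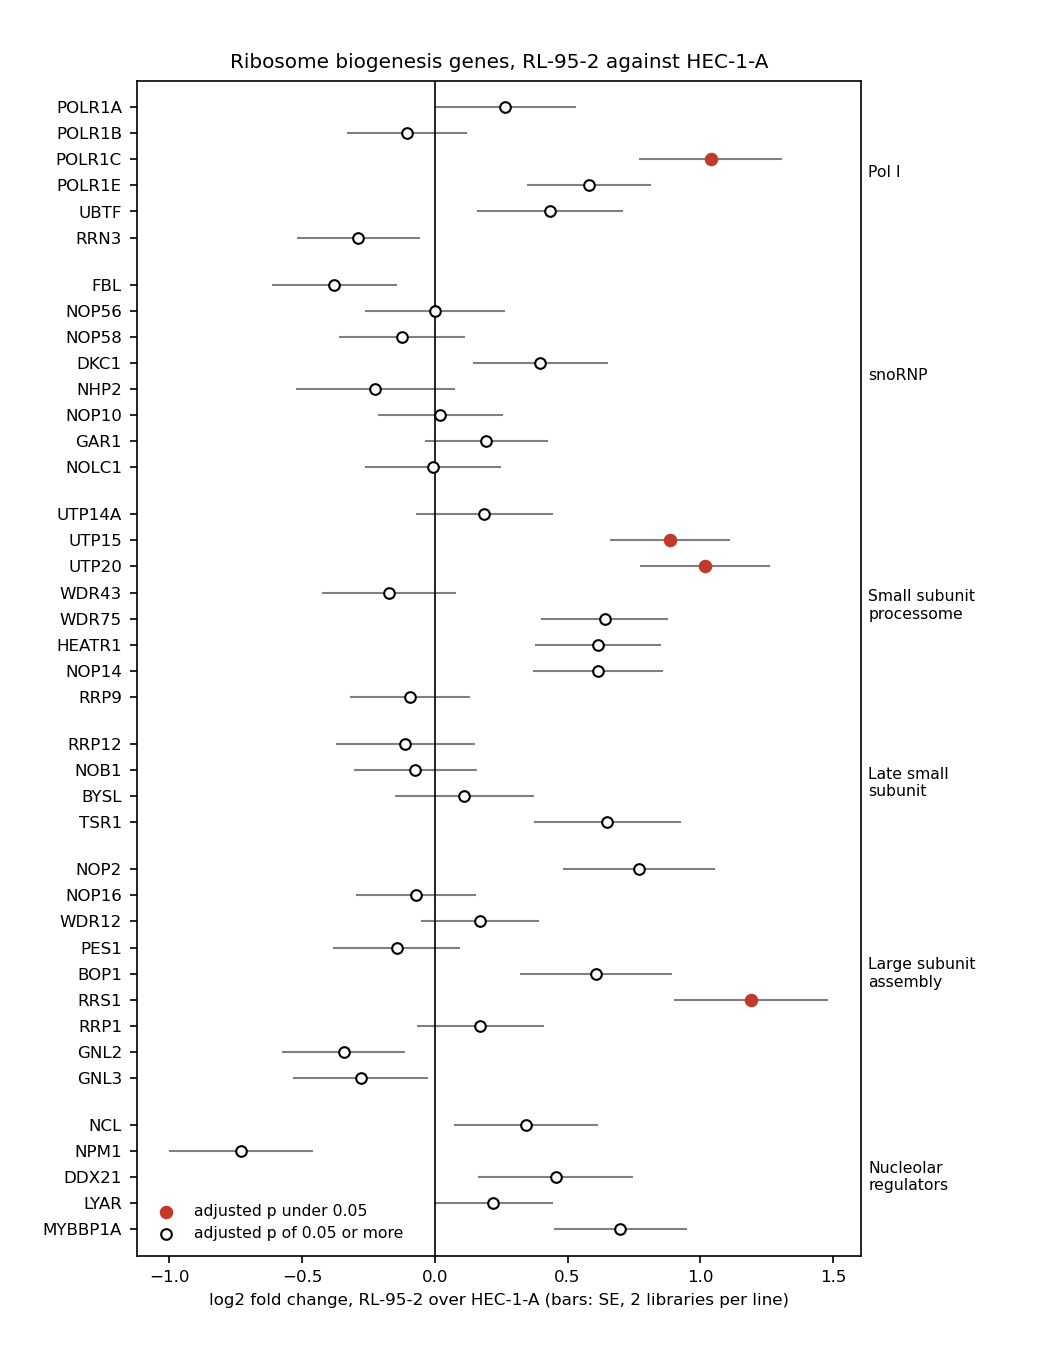
The log2 fold change of each gene in RL-95-2 over HEC-1-A from edgeR, with the SE as bars and 2 libraries per line. The 4 filled points, POLR1C, UTP15, UTP20 and RRS1, have an adjusted p under 0.05, and NPM1 has the lowest value, at -0.73.

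The wider pathway was read from a list of 115 further factors, of which 114 had a row in the table and passed the filter. In RL-95-2, 79 of the 114 (69.3%) had a log2 ratio above 0, beside 50.1% of all features, with a median of 0.17. At 1.5-fold 17 (14.9%) were higher and 7 (6.14%) lower, beside 14.5% and 15.5% of all features. Of the 8957 features of at least 10 CPM, 932 were higher and 1172 lower by that margin. Other small subunit factors had 34 of 42 above 0, other large subunit factors 31 of 45, other Pol I factors 6 of 11, and exosome and snoRNP assembly factors 8 of 16. The highest were SHQ1, a chaperone of DKC1, with 29.4 CPM in the RL-95-2 mimic and 10.6 CPM in the control (log2 ratio 1.46), and IMP3, a processome protein, with 61.5 and 29.8 CPM (1.05). TBL3 and DHX37, both of the processome, had 0.98 and 0.90. Lowest were EXOSC6, a subunit of the RNA exosome, with 45.1 CPM in the RL-95-2 mimic and 100.4 CPM in the control (-1.15), RSL24D1, a large subunit factor, with 84.3 and 185.6 CPM (-1.14), and TAF1A and TAF1D, subunits of the Pol I selectivity factor, at -0.92 and -0.80.

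In HEC-1-A, 54 of the 114 factors (47.4%) were above 0 (median -0.01), beside 53.6% of all features. At 1.5-fold 0 were higher and 0 lower, beside 3.44% and 1.32% of all features. Of the 8957 features of at least 10 CPM, 55 were higher and 25 lower. The highest were PNO1, at 36.5 CPM in the HEC-1-A mimic and 27.5 CPM in the control (0.41), DDX10 at 0.30, TAF1A at 0.29 and ZNRD1, a Pol I subunit, at 0.29. The lowest were DDX54, at 73.9 CPM in the mimic and 94.95 CPM in the control (-0.36), GNL3L at -0.28, DDX51 at -0.28 and NLE1 at -0.27. DDX10, DDX51 and DDX54 are RNA helicases. TAF1A thus stood among the lowest of the list in RL-95-2 and among the highest in HEC-1-A, a difference that was not tested. In the edgeR test over both lines 0 of the 114 passed, with 0 at an unadjusted p under 0.05. In RL-95-2 against HEC-1-A, 15 of the 114 (13.2%) were called higher and 12 (10.5%) lower, beside 18.3% and 16.7% of all features.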

How the data were processed

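Per the file headers, the table of raw counts and the table of FPKM values that the authors deposited cover the same 4 libraries. HISAT2, CASAVA and GRCh38 (hg38) are named in the submitters' processing notes. No source used here gives the counter, the annotation or the use of strand. For the main test, edgeR 4.0.16 (R 4.3.3) took the counts as deposited, removed features with few counts in either transfection group, scaled by TMM and applied its quasi-likelihood F test to 15957 features, with Benjamini-Hochberg adjustment at 0.05. The model held cell line and transfection, so that libraries were paired by the cell line in their labels. Within a line 1 library stood against 1, so no p was computed. The log2 ratio there (TMM-scaled CPM, 2 counts added as prior) has an exact 95% interval from the counts, which covers counting error only. All reads of a feature were used as counted, and 2963 features had 0 counts in all libraries.

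FPKM served to compare levels between genes. GC content, positions and overlaps came from GENCODE 29, and promoter sequences from RefSeq (GRCh38.p14). Alternatives used DESeq2 1.42.0, limma 3.58.1, other scalings, filters and prior counts, FPKM, a fit without the block and each line or transfection left out. The procedure was tested on simulated data. Values in every library are given for the Pol I genes, snoRNP genes, NCL and NPM1 and for the highest and lowest gene of each role in each line, and the 4 highest and 4 lowest wider factors of at least 5 CPM are named. Others named were chosen after their values were seen. The genes and lists were chosen with earlier results of these data known.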

Additional observations from a re-analysis of the deposited data

Results flagged for a closer look

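For 18 of the 40 genes the mimic over control ratios of the 2 lines lay on opposite sides of 0, each with a counting interval that did not reach 0. Of these, 14 (35%) were above 0 in RL-95-2 and below 0 in HEC-1-A, as were 11.9% of 11913 features, and 4 (10%) were the reverse, as were 15% of features. Intervals narrow with count and the 40 genes had at least 744 counts, so these shares are not matched in level. By sign alone, 42.5% of the 40 were above 0 in RL-95-2 and below 0 in HEC-1-A, beside 26% of features. The reverse held for 25% of the 40 and 29.2% of features. With 1 library per line and transfection, the difference was not tested. The log2 ratio in RL-95-2 minus that in HEC-1-A was 0.99 for NHP2, 0.89 for NOP2, 0.89 for BOP1, 0.79 for TSR1, 0.73 for UBTF, 0.63 for POLR1A, 0.62 for UTP14A, 0.55 for NOP56, 0.54 for MYBBP1A, 0.51 for NOP14, 0.50 for UTP20, 0.44 for PES1, 0.42 for RRP1 and 0.24 for POLR1B. It was -0.68 for RRP12, -0.64 for DDX21, -0.50 for WDR43 and -0.45 for WDR75.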

How the results depend on the processing

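The test of mimic against control over both lines called 0 of the 40 genes under all 9 alternatives, among them the fit with no replicate block (0). In RL-95-2 against HEC-1-A the 4 called genes passed under all 9, and the count was 7 with DESeq2, 7 on log2(FPKM + 0.1) and 9 with no replicate block. Over all 15957 features DESeq2 called 2794 higher and 2643 lower, log2(FPKM + 0.1) 3529 and 3081, and the fit without the block 3495 and 3151. In RL-95-2 the median log2 ratio of 0.13 was 0.26 with scaling by library total, 0.25 on log2(FPKM + 1) and 0.26 on log2(FPKM + 0.1), settings under which 1 gene, RRS1, was at least 2-fold higher. The first moved the median of all features to 0.13. Relative to the median of all features, the 40 genes lay 0.13 to 0.14 higher in RL-95-2 and 0.04 to 0.07 lower in HEC-1-A in the main setting and the 7 alternatives that scale or correct the ratios. At 1.5-fold the number higher in RL-95-2 was 5, and it was 9 with scaling by library total, 10 on log2(FPKM + 1), 10 on log2(FPKM + 0.1), 4 with RLE size factors and 3 with GC and length trends removed. The median difference between the lines, 0.17, was 0.32, 0.33 and 0.34 under the same 3 settings. The cause was not tested. Leaving out each line in turn gave medians of -0.02 to 0.13 over both lines (0.06 with both), and leaving out each transfection gave 0.12 to 0.23 for RL-95-2 over HEC-1-A. No spread between cultures of a line was measured, so counting error is the smallest error these ratios can have.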

Other observations

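Introns of these genes often carry snoRNA genes, which poly(A) RNA does not measure. In GENCODE 29, 8 of the 40 genes (POLR1C, NOP56, NOP58, DKC1, WDR43, TSR1, GNL3 and NCL) hold at least 1 snoRNA gene on the same strand, with 6 in GNL3, 5 in NOP56 and 4 in NOP58. In RL-95-2 the log2 ratio of mimic over control was above 0 for 4 of these 8, with a median of -0.09, and for 19 of the other 32, with a median of 0.13. In HEC-1-A it was above 0 for 4 of the 8 (median -0.01) and for 12 of the 32 (median -0.03). These are descriptions with no test.

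Exons of 11 of the 40 genes overlap exons of another gene of the count table on the other strand, the longest being 2095 bases between HEATR1 and LGALS8. Over the 29 genes with no such overlap the median log2 ratio was 0.11 in RL-95-2 and -0.02 in HEC-1-A, beside 0.13 and -0.02 over all 40.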
